A study of Bos taurus with 12 samples.

Results

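Among the 6 arrays of oocyte pools from prepubertal heifers, 2 read low for BMP15 and 4 read high, and the sections here describe which genes differed between those 2 sets of arrays. The sets were chosen by the measured signal of BMP15: an array was put in the low set if the BMP15 probe set with the highest mean over 12 arrays was below a log2 signal of 12, and in the high set if it was at or above 12. The low set held replicate 1 at the germinal vesicle (GV) stage and replicate 1 at metaphase II (MII); the high set held replicates 2 and 3 at both stages. These are 6 of the 12 arrays of the series, and all 24016 probe sets that are not array controls were read, 13292 of which carry 1 gene symbol and represent 9155 genes. Because a measured oocyte gene divided the arrays, every value of the low arrays against the high arrays is a description, and none of them was tested.

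The series measured RNA of Japanese Black cattle oocytes on Affymetrix bovine arrays, with 3 arrays in each of 4 groups: GV and MII oocytes from prepubertal heifers, and GV and MII oocytes from adult cows. The heifers were 9 to 12 months old and were spayed on farms, while the ovaries of adult cows came from an abattoir. Complexes of oocyte and cumulus cells were aspirated from follicles of 2 to 8 mm in all 4 groups. GV oocytes were taken straight after aspiration, and MII oocytes after 20 to 22 h of maturation in vitro, if they showed a polar body. Cumulus cells were removed with hyaluronidase and pipetting, 50 oocytes without visible cumulus cells were pooled per array, and the amplified RNA carried a biotin label. The 3 pools of each group are titled as biological replicates with no animal named, so the spread between arrays may be that of pools and of handling as much as that of animals. The low and high sets also differ in replicate number, and the 2 cannot be told apart.

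An oocyte grows inside a follicle, coupled by gap junctions to the cumulus cells that surround it. It secretes growth factors of the BMP family that act on those cells, builds the zona pellucida, and stores maternal transcripts that carry it through meiosis and the first cleavages. Cumulus cells, a branch of the granulosa cell lineage, lay down a matrix of hyaluronan and cross-linking proteins around the time of ovulation, while granulosa cells produce inhibin, follistatin and oestrogen.

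Values are deposited log2 signals, and a value is set only against other values of the same probe set. The 2 low arrays resembled each other (Spearman correlation over all probe sets 0.664) more than either resembled any high array (0.406 to 0.542 over 8 pairs). The 4 high arrays correlated among themselves at 0.535 to 0.741. The ranges meet at GV replicate 2, a high array. It correlated at 0.542 with GV replicate 1, and at 0.535, 0.55 and 0.537 with GV replicate 3, MII replicate 2 and MII replicate 3. Array medians ran from 5.64 to 8.30, with 7.63 and 6.52 on the low arrays and 5.64 to 7.52 on the high ones. Among the 6 adult arrays, GV adult replicate 1 stood apart: its median was the highest of all, its best correlation with any array was 0.27, and its BMP15 was 6.47. It is given separately from the other 5 adult arrays throughout. On arrays of whole pools, fewer cells of a type and less RNA per cell cannot be told apart.

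BMP15 left a wide space around the bound. It read 7.08 at GV and 6.55 at MII in the low arrays, and the high arrays began at 14.21, in GV replicate 2, and ended at 14.77, in MII replicate 2. No prepubertal array lay between 7.08 and 14.21. In the sentences that follow, values of low arrays are given as GV and then MII, and values of high arrays in the order GV replicate 2, GV replicate 3, MII replicate 2 and MII replicate 3. A difference is the mean of the 2 low arrays minus the mean of the 4 high arrays in log2 units, so it is negative where the low arrays were lower.

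The other marker genes fell on opposite sides of the same division. BMP15 alone divided the arrays, but PTX3, TNFAIP6 and INHA were already known to read high in the low set. GDF9, ZP2 and VIM were chosen as markers with earlier results of these data known. The separation of all these markers is therefore no separate support for the division. GDF9, the oocyte-secreted partner of BMP15, read 7.47 and 6.27 in the low arrays against 13.58, 14.35, 13.15 and 12.09. ZP2, a zona pellucida glycoprotein, read 4.99 and 7.98 against 14.41, 15.33, 14.20 and 13.96. Both were low in the 2 arrays and high in the 4, without overlap. PTX3, a pentraxin that cross-links the cumulus matrix, read 14.66 and 14.53 in the low arrays against 2.62, 4.46, 7.54 and 8.74. TNFAIP6, which transfers heavy chains onto hyaluronan in that matrix, read 13.29 and 13.81 against 6.21, 4.56, 4.26 and 4.28. These ran the other way, also without overlap. INHA, the alpha chain of inhibin, a hormone of granulosa cells, read 12.37 and 11.91 against 4.74, 2.50, 6.44 and 4.10, and the mesenchymal intermediate filament VIM read 13.25 and 14.66 against 6.57, 5.59, 4.25 and 6.79. All 4 somatic markers were thus under 10 in the arrays that read high for BMP15, and in each of them the lowest low array lay above the highest high array.

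**Figure D1:**
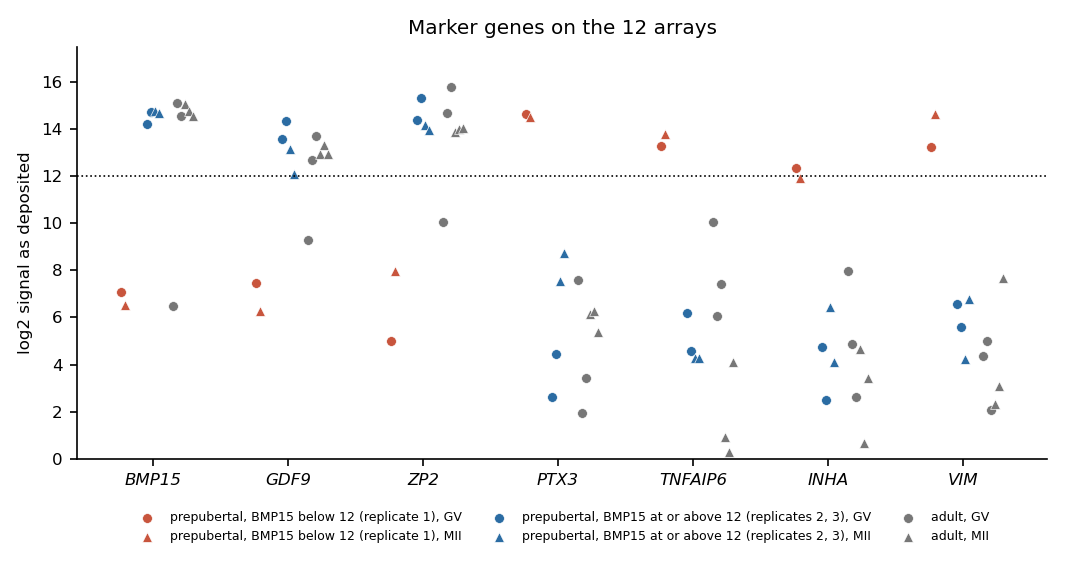
Log2 signal (vertical axis) of 7 marker genes on the 12 arrays; red symbols are the 2 prepubertal arrays with BMP15 below 12, blue the 4 at or above 12, grey the 6 adult arrays, circles GV and triangles MII, and the dotted line is the bound of 12 used on BMP15 alone. The red symbols are low for BMP15, GDF9 and ZP2 and high for PTX3, TNFAIP6, INHA and VIM, and the grey circle at 6.47 for BMP15 is GV adult replicate 1.

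To count genes, a wide gap and a clear level were both required: the lowest array of one set had to lie at least 2 log2 units above the highest of the other, and every array of the higher set had to read at least 10. By this rule 575 probe sets (2.39%) were higher in the low arrays and 377 (1.57%) in the high arrays. They represent 295 genes (3.22%) and 238 genes (2.60%) of the 9155. Of the 575, 204 carry no symbol in the array annotation, as do 96 of the 377. Without the level and the gap, 1664 genes (18.2%) had both low arrays above all 4 high arrays and 1402 (15.3%) had the reverse, so order alone set apart many more genes. A positive difference was found for 5245 genes (57.3%) and a negative one for 3910 (42.7%). These shares over all genes are the background for every list and family count given here. The split of the counted probe sets depended on scale: 60.4% of them were higher in the low arrays on the deposited scale and 41.2% once each array was centred on its median, with 242 of the 575 and 259 of the 377 counted again. The median difference of all genes moved from 0.38 on the deposited scale to -0.16 after quantile normalization and -0.51 after centring, and it was 0.02 without GV replicate 1 and 0.83 without MII replicate 1. GV replicate 1 and GV replicate 2 weighed most on these counts. Without the first, 990 probe sets and 468 genes were higher in the remaining low array, and without the second, 579 probe sets were higher in the high arrays.

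**Figure D2:**
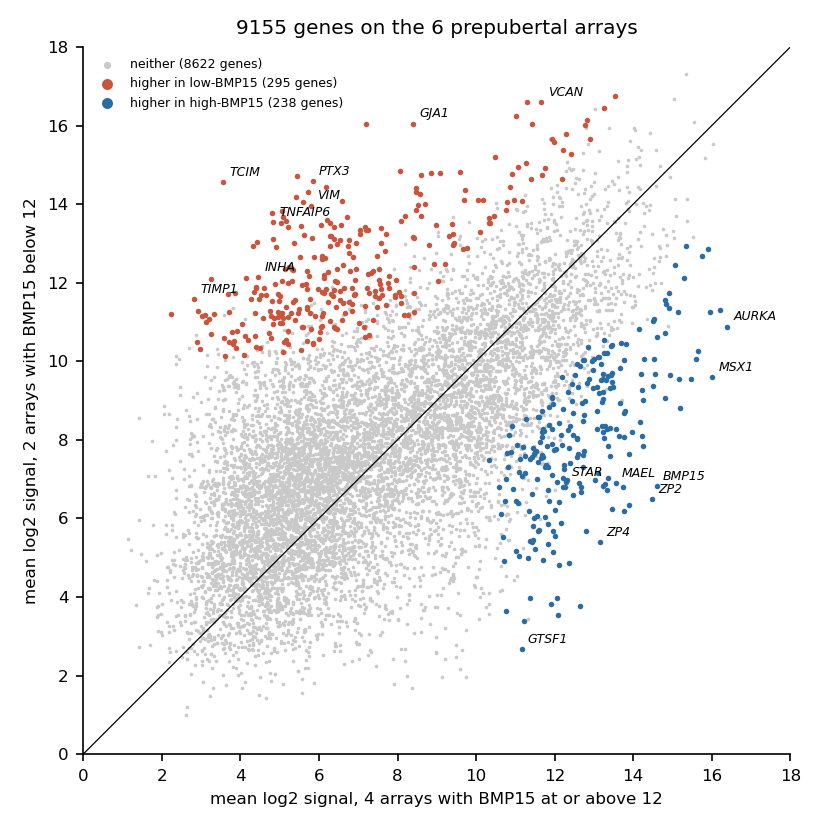
Mean log2 signal of each of 9155 genes in the 4 high-BMP15 prepubertal arrays (horizontal axis) against the 2 low-BMP15 arrays (vertical axis); red points are the 295 genes counted as higher in the low arrays, blue points the 238 counted as higher in the high arrays, grey points all others, and the line marks equal means. Counted genes lie off the line on both sides, among them TCIM, GJA1 and VCAN above it and BMP15, ZP4 and GTSF1 below it.

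Most genes for oocyte growth factors and zona proteins were lower in the low arrays. Beside BMP15, whose values divided the arrays, 3 genes for oocyte growth factors and their receptors were measured. Of these 1, GDF9, was counted as higher in the high arrays (2.60% of all genes were) and none the other way. The median difference was -2.25 over the 3 against 0.38 for all genes. The list with BMP15 has a median of -4.34, part of which the choice of arrays fixed. KIT, the receptor for stem cell factor on the oocyte surface, read 11.87 and 11.48 in the low arrays against 14.56, 14.52, 12.86 and 13.74. It was lower in the low arrays without overlap, but stayed well above the level of 10 in all 6 arrays, and its gap missed the counting rule. ZP3, a building block of the zona filaments, read 7.28 and 3.02 against 10.09, 13.02, 13.14 and 11.65, and ZP4 read 4.57 and 6.22 against 13.01, 13.97, 13.06 and 12.55. All 3 measured zona genes were counted (2.60% of all genes were), and the median difference of the zona and egg surface list was -7.29. CD9, a tetraspanin needed on the egg for fusion with sperm and also found on many somatic cells, was the remaining gene of that list and went the other way, at 14.31 and 13.91 against 9.03, 11.22, 9.56 and 10.86. After median centring 2 genes of this list, ZP2 and ZP4, were still counted, and ZP3 and CD9 were not.

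Maternal effect and germline genes were lower in the low arrays with few exceptions. Of 10 measured, 5 were counted as higher in the high arrays (2.60% of all genes were) and none as higher in the low ones (3.22%). The median difference was -4.35. MAEL, a germline protein of the piRNA pathway, read 6.25 and 7.53 against 13.54, 13.30, 14.03 and 13.33. SYCP3, of the synaptonemal complex, read 6.82 and 6.76 against 13.00, 13.17, 11.99 and 12.50. OOEP, part of the subcortical maternal complex of eggs, read 7.29 and 8.84 against 11.81, 11.98, 11.62 and 11.37. In all 3 genes the 4 high arrays lay close together and apart from both low arrays. KPNA7, an importin of oocytes and early embryos, read 7.87 and 10.27 against 13.81, 14.49, 15.25 and 15.69, so the low array at MII kept a readable signal. UHRF1, a partner of the maintenance DNA methyltransferase, read 8.93 and 7.61 against 12.86, 12.42, 13.62 and 14.46. NLRP5, the maternal effect gene also called MATER, read 3.90 and 5.17 against 10.17, 13.69, 10.36 and 9.90, which did not overlap but was not counted because 1 high array lay under 10. UCHL1, a deubiquitinase abundant in oocytes and neurons, did not separate the sets: it read 13.43 and 14.04 in the low arrays against 12.46, 13.63, 12.19 and 12.61.

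Cell cycle genes of meiosis were lower in the low arrays as a group. Of 27 measured, 26 had a negative difference (42.7% of all genes did), 21 had all 4 high arrays above both low arrays (15.3% of all genes), and 9 met the counting rule (2.60% of all genes), with a median difference of -3.88 (-4.77 after median centring). MOS, the kinase that holds the egg at metaphase II, read 3.90 and 7.22 against 10.81, 11.84, 12.41 and 12.94. CCNB1, the cyclin that activates maturation-promoting factor, read 6.64 and 8.55 against 12.77, 13.47, 14.03 and 13.38. Both separated the sets by more than 3 log2 units at their closest arrays. AURKA, a kinase of the spindle poles, read 10.23 and 11.53 against 16.40, 16.54, 16.26 and 16.37, with a spread of 0.11 (SD, n = 4) in the high arrays. Its signal in the low arrays was thus lower but still above 10. The others counted were CCNB2, CCNA2, CDC25C, CDC6, CKS1B and CKS2. CDK1, the kinase that those cyclins activate, read 8.63 and 6.55 against 11.63, 11.51, 10.70 and 9.75 and missed the gap, with 1 high array under 10. BIRC5, a subunit of the chromosomal passenger complex, overlapped between the sets, at 9.54 and 11.95 against 10.20, 11.60, 12.53 and 12.52. SPC24, of the kinetochore, was the single member with a positive difference, 1.37.

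Genes for the storage and decay of maternal mRNA did not follow that pattern. Of 10 measured, none was counted as higher in the high arrays (2.60% of all genes were). In the low ones 1, ZFP36L2, was counted as higher (3.22% of all genes), and the median difference was -0.16. Its sign was positive when all probe sets of a gene were averaged (0.34) and without MII replicate 1 (0.02), and after median centring CNOT6L was counted as higher in the high arrays in place of ZFP36L2. ZFP36L2, an RNA-binding protein that promotes mRNA decay, read 10.44 and 10.44 in the low arrays against 6.78, 5.15, 5.19 and 6.26. CNOT6L, a deadenylase of maternal mRNA clearance, read 8.21 and 8.22 against 12.01, 9.55, 12.21 and 11.95. IGF2BP3, which binds and stabilises mRNA, read 6.24 and 7.19 against 8.82, 12.78, 13.15 and 13.24. Members of the same list thus lay on both sides.

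The 30 genes with the widest gap in favour of the high arrays held further genes known from germ cells beside BMP15, ZP4, ZP2, MAEL and SYCP3. GTSF1, a germline factor of the piRNA pathway, came next to BMP15 and read 3.35 and 2.01 in the low arrays against 11.39, 11.80, 11.20 and 10.25. CCL25, a chemokine better known from thymus and gut, read 4.53 and 2.56 against 11.17, 12.58, 12.48 and 12.16, although its 2 other probe sets differed in the opposite direction by 3.67 and 4.32. CLDN10, a tight junction claudin, read 6.40 and 7.01 against 13.50, 13.13, 13.13 and 13.58. All 3 read under 8 in both low arrays and at least 10 in all 4 high arrays. Cell division genes were SKA1 (difference -7.23), CDCA8 (-5.89), the cyclin CCNA2 already named above (-5.73), NUSAP1 (-5.73) and CENPO (-5.80). A second probe set of CENPO showed a difference of 0.07. Transporters were SLC5A1, which carries glucose with sodium (difference -8.07), and SLC1A5, which carries glutamine (-5.61). SLC1A5 still read 9.76 and 9.36 in the low arrays, against 15.83, 15.60, 14.72 and 14.54. The tyrosine kinases FYN and FER differed by -5.99 and -6.12. MSX1, a homeobox factor of limb and craniofacial development, read 8.55 and 10.64 against 15.41, 16.38, 16.06 and 16.20, bright in the high arrays and still above 10 in the low array at MII.

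**Figure D3:**
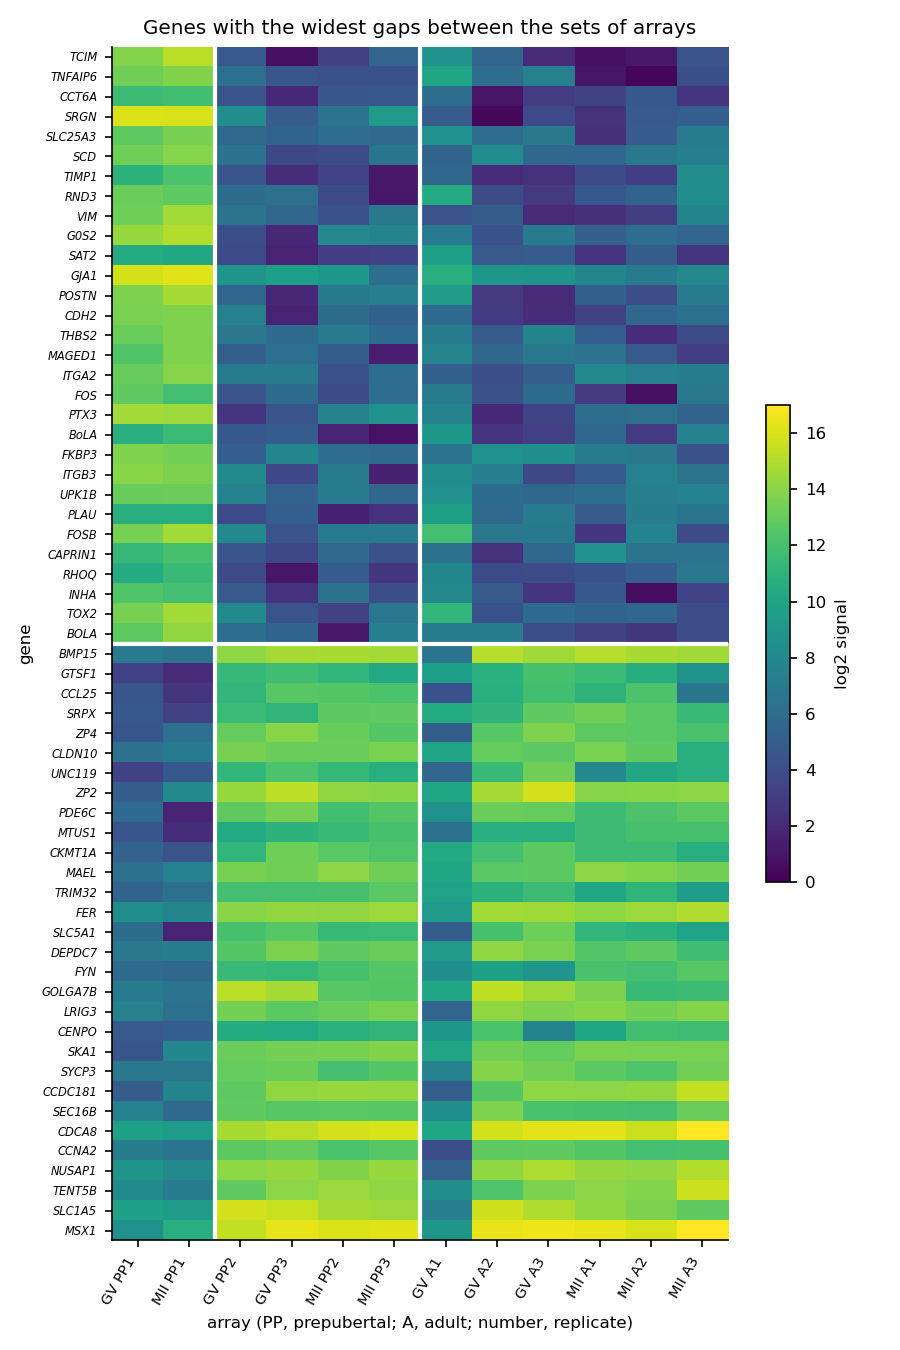
Log2 signal (colour scale, 0 to 17) of the 30 genes with the widest gap in each direction (rows, upper block higher in the low-BMP15 arrays, lower block higher in the high-BMP15 arrays) on the 12 arrays (columns; PP prepubertal, A adult, number the replicate). The first 2 columns are the low-BMP15 arrays, the next 4 the high-BMP15 arrays; among the adult columns GV A1 differs from the other 5 in the lower block.

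Cumulus expansion genes were higher in the low arrays, though not all of them. Of 16 measured, 15 had a positive difference (57.3% of all genes did). As higher in the low arrays 6 were counted (3.22% of all genes) and none as higher in the high arrays. The median difference was 3.27 (2.38 after median centring, with 3 counted). The 6 include PTX3 and TNFAIP6, whose high values in the low arrays were known beforehand. Beside them, VCAN, the large proteoglycan that binds hyaluronan, read 16.08 and 17.10 against 10.84, 11.57, 11.50 and 12.74. VCAN was therefore readable in the high arrays too. PTGES, which makes prostaglandin E, read 10.60 and 11.96 against 7.82, 6.22, 6.63 and 6.65. ADAMTS1, the protease that trims versican, read 10.65 and 10.43 against 7.42, 1.61, 6.55 and 5.06. PLAT, tissue plasminogen activator, read 11.66 and 13.01 against 7.46, 6.60, 6.20 and 0.98. HAS2, the synthase of hyaluronan itself, read 10.50 and 11.04 against 8.28, 9.04, 8.67 and 8.09, above every high array but with a gap under 2. PTGS2, the prostaglandin synthase induced at ovulation, overlapped, at 9.75 and 7.68 against 7.72, 5.85, 7.97 and 7.91. CD44, the hyaluronan receptor of cumulus cells, read 4.52 and 6.16 against 4.33, 1.29, 7.14 and 6.0 and was low on all 6 arrays. The low arrays thus carried 6 of these genes at 10 or more with a wide gap, while CD44 overlapped between the sets.

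Granulosa cell genes were divided in the same way. Of 25 measured, 6 were counted as higher in the low arrays (3.22% of all genes were) and none as higher in the high arrays. A positive difference was found for 23 (57.3% of all genes), and the median difference was 2.80. The same 6 were counted after median centring, among them INHA, whose high values in the low arrays were known beforehand. FST, follistatin, read 12.53 and 13.72 against 5.16, 0.46, 7.67 and 6.04. GJA1, the connexin of gap junctions between granulosa cells, read 15.91 and 16.19 against 8.77, 9.61, 9.08 and 6.12. GATA6, a transcription factor of granulosa and theca cells, read 11.76 and 12.32 against 7.30, 2.79, 5.69 and 4.48. CDH2, the N-cadherin of granulosa cells, read 13.61 and 13.71 against 7.39, 1.69, 5.99 and 5.29. SERPINE2, a protease inhibitor, was bright in all arrays and brighter in the low ones, at 15.95 and 16.54 against 10.98, 11.48, 9.93 and 11.68. INHBA, the activin beta A subunit, read 10.08 and 12.57 against 5.22, 8.21, 6.84 and 6.78 and missed the gap.

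Some well-known genes of the granulosa list read under 10 in both low arrays and did not separate the sets, while most of that list had a positive difference. FSHR, the receptor for follicle-stimulating hormone, read 7.47 and 8.93 against 8.72, 3.43, 5.63 and 4.99. AMH, made by granulosa cells of growing follicles, read 4.81 and 6.62 against 4.23, 3.11, 5.20 and 2.09. FOXL2, the granulosa transcription factor, read 4.46 and 1.81 against 6.34, 3.59, 2.47 and 4.90. CYP19A1, aromatase, read 9.04 and 3.79 against 8.92, 2.08, 2.07 and 1.39, with GV replicate 1 and GV replicate 2 alike and the other arrays low. LHCGR, the receptor for luteinising hormone, read 8.18 and 2.24 against 8.35, 1.42, 6.01 and 2.74. None of these 5 separated the sets or reached 10 in any prepubertal array. Levels of different probe sets are not compared here, so this does not show that their transcripts were absent from the low arrays. Over the whole list of 25, 14 genes had both low arrays above all 4 high arrays (18.2% of all genes did) and 0 had the reverse. Among the 14 and not counted, PGR read 9.75 and 9.58 against 7.04, 5.40, 5.83 and 4.29. IGFBP5 read 9.40 and 10.51 against 4.93, 1.02, 4.36 and 6.87. The arrays are called here by their BMP15, which divided them, and not by a cell type.

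Steroid synthesis genes showed no common direction. Of 11 measured, 7 had a positive difference, 3 had both low arrays above all 4 high arrays and 2 the reverse. None was counted as higher in the low arrays, a number near the background for a list of this size (3.22% of all genes), and 1, STAR, was counted as higher in the high arrays. The median difference was 0.95 (0.06 after median centring and 0.17 without GV replicate 1). STAR, which brings cholesterol into the mitochondrion for steroid synthesis, read 5.10 and 8.74 against 11.77, 13.12, 11.68 and 12.59, and so was high in the arrays that were high for BMP15. CYP11A1, which makes pregnenolone, read 6.95 and 6.77 against 4.49, 3.35, 5.02 and 2.50. CYP17A1, the theca enzyme of androgen synthesis, was at 4.34 and 1.14 against 4.94, 2.80, 4.16 and 1.22, at the low end of the scale on all 6 arrays.

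Genes of theca, stroma and matrix were mostly higher in the low arrays, with a small number past the counting rule. Of 19 theca and stroma genes, 17 had a positive difference (57.3% of all genes did), with a median difference of 2.54. As higher in the low arrays 2 were counted (3.22% of all genes), and none in the high ones. LUM, a proteoglycan of connective tissue, read 11.91 and 11.26 against 5.94, 5.70, 0.90 and 5.37. PDGFRA, a receptor of mesenchymal cells, read 12.06 and 10.96 against 7.38, 5.27, 7.26 and 4.95. The fibrillar collagen genes COL1A1, COL3A1 and COL1A2 did not reach the level in both low arrays: COL1A1 read 9.52 and 10.08, COL3A1 9.50 and 9.29, and COL1A2 8.45 and 8.52. Of 24 matrix and protease genes, 6 were counted as higher in the low arrays (3.22% of all genes were) and 1 in the high arrays (2.60%). After median centring these counts were 3 and 1. The median difference was 2.23. TIMP1, an inhibitor of metalloproteinases, read 11 and 12.17 against 4.49, 2.18, 3.45 and 1.15. SPARC, a matrix glycoprotein, read 11.49 and 13.21 against 8.32, 5.70, 6.84 and 4.99, and COL4A1, of basement membranes, 11.57 and 12.57 against 8.49, 8.10, 9.24 and 6.05. NID2, nidogen of basement membranes, was the exception, at 8.57 and 6.95 against 12.27, 11.73, 12.03 and 12.11.

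Cytoskeletal and calcium-binding genes common in somatic cells were higher in the low arrays for a part of the list. Of 28 measured, 9 were counted as higher in the low arrays (3.22% of all genes were) and 1 as higher in the high arrays (2.60%). The median difference was 2.51 (1.61 after median centring, when 5 and 0 were counted). TPM1, TPM2 and TPM4, tropomyosins of actin filaments, differed by 4.66, 5.44 and 8.02. TPM2 read 13.42 and 14.53 against 7.12, 9.40, 8.92 and 8.69. KRT18, a keratin of simple epithelia and granulosa cells, read 10.96 and 11.81 against 8.38, 5.60, 8.73 and 3.01, and ANXA1, a phospholipid-binding annexin, 11.64 and 12.45 against 3.37, 5.97, 7.28 and 4.61. The gene counted as higher in the high arrays was ACTN1, an actin cross-linker, at 7.95 and 7.40 against 10.11, 11.29, 11.26 and 10.87. EZR, ezrin of microvilli, read 12.76 and 13.59 against 15.96, 15.55, 15.09 and 15.43, without overlap but with a gap under 2. The cytoplasmic actins lay on the other side: ACTG1, gamma actin, was counted as higher in the low arrays, at 14.39 and 15.07 against 10.90, 12.16, 12.06 and 11.60. ACTB, beta actin, was bright on all arrays, at 15.15 and 16.72 against 14.21, 14.09, 14.32 and 13.46.

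Immediate early and stress genes were higher in the low arrays for a large part of the list. Of 21 measured, 10 were counted as higher in the low arrays (3.22% of all genes were), none as higher in the high arrays, and the median difference was 3.70. It was 2.81 after median centring, when 7 were counted, and 4.69 without GV replicate 1. FOS, of the AP-1 transcription factor, read 12.84 and 11.89 against 4.49, 6.01, 3.98 and 6.07, and FOSB 13.50 and 14.64 against 7.97, 4.38, 7.10 and 6.91. EGR1, a zinc finger factor induced by growth factors, read 14.28 and 15.27 against 9.97, 7.95, 8.53 and 8.94. ATF3, induced by stress, read 12.07 and 13.17 against 4.52, 8.03, 6.10 and 5.99. The counting rule itself required these 4 to be high at both stages of replicate 1, before and after culture. CCN1 and CCN2, secreted regulators of cell adhesion, differed by 6.92 and 4.40, and SGK1, a kinase induced by serum and steroids, by 7.14. CEBPB, a factor of the ovulatory response in granulosa cells, did not take part, at 5.36 and 9.61 against 8.66, 11.12, 9.99 and 10.92.

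Metabolic lists were divided less clearly. Of 20 glycolysis genes, 2 (PGK1 and SLC2A1) were counted as higher in the low arrays (3.22% of all genes were). There were 18 positive differences (57.3% of all genes had one) and a median difference of 2.29. After median centring 0 were counted and the median was 1.40, and without GV replicate 1, 6 were counted. PGK1, phosphoglycerate kinase, read 14.24 and 15.35 against 9.15, 10.58, 9.68 and 6.86. GAPDH, of the same pathway, overlapped, at 11.96 and 13.21 against 10.93, 11.77, 12.37 and 11.13. Of 16 cholesterol synthesis genes, 1 was counted, SQLE, squalene epoxidase, at 11.20 and 11.93 against 7.26, 5.78, 6.70 and 6.42. The count was 2 without GV replicate 1 or without GV replicate 3, and without MII replicate 1 a gene was also counted as higher in the high arrays, so it lies near the background of 3.22%. HMGCS1, an early enzyme of that pathway, ran the other way, at 10.18 and 11.56 against 13.30, 12.93, 13.62 and 13.85. Of 18 antioxidant genes, 9 differed in each direction, with a median difference of -0.17 (0.04 without GV replicate 3). TXN, thioredoxin, read 15.01 and 13.61 against 6.73, 10.02, 8.54 and 8.59. PRDX6, a peroxiredoxin, read 11.32 and 11.31 against 15.97, 16.26, 16.17 and 16.38, so members of this list were counted on both sides. Another probe set of PRDX6 met the counting rule in the opposite direction, so its side depends on the probe set.

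The number of counted genes for cytosolic ribosomal proteins rested on the scale. Of 62 measured, 60 had a positive difference (57.3% of all genes did), and the median difference was 2.55. As higher in the low arrays 21 were counted (3.22% of all genes), and none as higher in the high arrays. RPL14 read 13.81 and 14.40 in the low arrays against 9.73, 10.47, 9.93 and 10.08, and RPL34 15.44 and 14.98 against 9.52, 11.77, 10.07 and 10.62. These signals were readable in all 6 arrays. After each array was centred on its median, 0 of the 62 were counted and the median difference was 1.66, while after quantile normalization 19 were counted. Set against the array's own median, the list median stood 6.19 and 7.70 log2 units higher in the low arrays and 3.23, 6.67, 5.66 and 5.93 higher in the high ones, which overlapped through GV replicate 3.

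Marker lists of other cell types had at most 1 counted gene each. These lists are too small for such counts to be set against the shares over all genes (3.22% and 2.60%). None of 20 blood and immune genes reached 10 in both low arrays or was counted in either direction, 13 had a positive difference, and the median difference was 1.08 (0.19 after median centring, 2.16 without MII replicate 1). PTPRC, the common leukocyte antigen, read 8.02 and 1.36, and the globin genes HBA and HBB read 6.60 and 6.08, and 3.77 and 6.24. Relative to the array's median, the list median lay at -1.01 and -0.66 in the low arrays and at -1.03 to -0.79 in the high ones. Of 11 endothelial genes none was counted as higher in the low arrays; PECAM1, of endothelial junctions, read 5.41 and 6.73. Of 8 surface epithelium genes none was counted as higher in the low arrays either, and KRT7 read 6.72 and 6.40. The median differences of these lists were 1.01 and 0.85, and the sign of the second was negative after quantile normalization (-0.19), after median centring (-0.05) and without GV replicate 1 (-0.22). On each of these 2 lists 1 gene was counted as higher in the high arrays, TEK and EPCAM, and TEK was not counted after median centring.

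**Figure D4:**
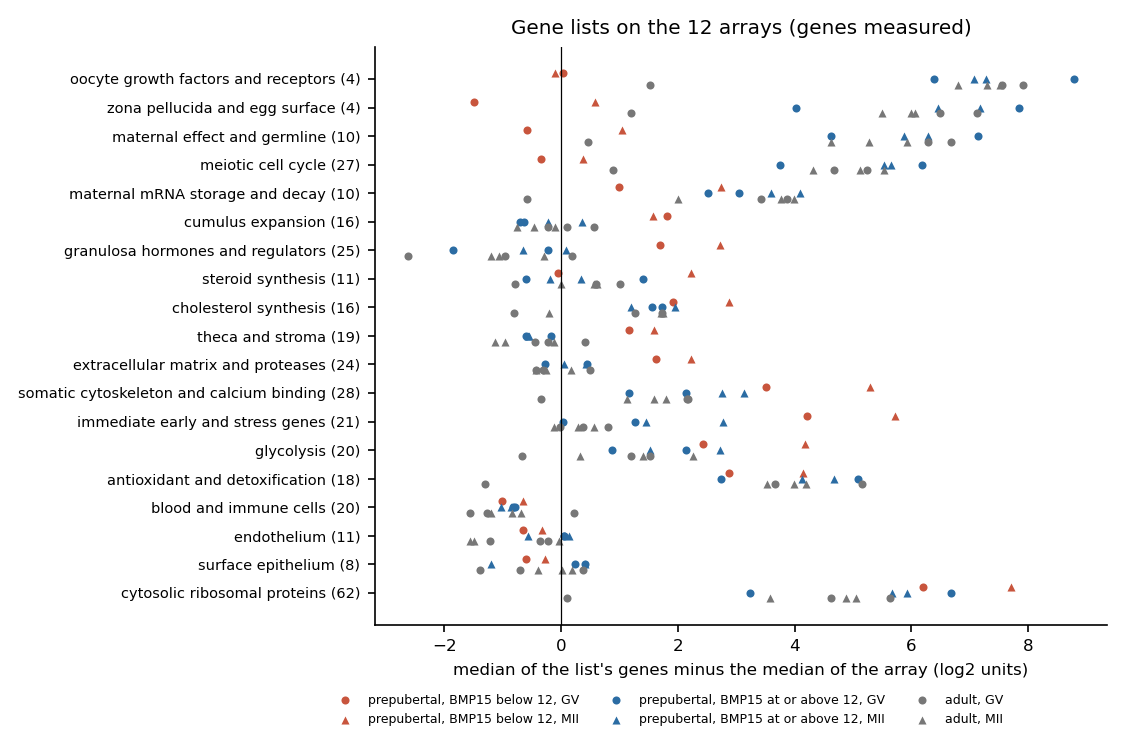
Median log2 signal of each gene list minus the median of the array (horizontal axis, log2 units), for 19 lists with the number of genes measured in brackets; red symbols are the 2 low-BMP15 prepubertal arrays, blue the 4 high-BMP15 arrays, grey the adult arrays, circles GV and triangles MII. The upper 4 lists put red near 0 and blue to the right, the immediate early list puts red at 4.21 and 5.71 and blue at 0.03 to 2.77, and for the ribosomal list the colours overlap.

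The widest gaps on the other side were not confined to the lists. TCIM, a small regulator of Wnt signalling, led them, at 13.84 and 15.27 in the low arrays against 4.73, 0.78, 3.27 and 5.52. SRGN, the proteoglycan of secretory granules, read 16.09 and 15.98 against 8.35, 4.90, 6.49 and 9.12. SCD, which desaturates fatty acids, read 13.24 and 13.93 against 6.44, 3.68, 3.90 and 6.61. All 3 lay under 10 in the 4 high arrays. G0S2, an inhibitor of lipolysis, differed by 9.27, and the small GTPase RND3 by 8.62. Adhesion genes were POSTN, periostin (difference 8.76), THBS2, a thrombospondin (7.06), and the integrin subunits ITGA2 (7.42) and ITGB3 (8.76). ITGB3 read 14.00 and 13.66 against 8.06, 3.59, 7.04 and 1.58, and its 3 other probe sets differed by 5.02 to 6.46 in the same direction. PLAU, urokinase, read 10.74 and 10.66 against 3.82, 5.11, 1.55 and 2.47. UPK1B, a uroplakin of urothelium, read 13.06 and 13.15 against 7.51, 5.35, 6.98 and 5.72. A pair of probe sets annotated to class I histocompatibility genes, BoLA and BOLA, differed by 8.12 and 8.47. TOX2, a factor of the TOX family, differed by 8.47, but its second probe set by 0.83 only. CCT6A and SLC25A3, a chaperonin subunit and a mitochondrial phosphate carrier that are not restricted to any cell type, differed by 7.88 and 7.33, so genes of wide expression were also among the 30.

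The same division could be read at GV and at MII on separate arrays, as replicate 1 against replicates 2 and 3 of that stage. By the gap and level rule, 489 genes (5.34%) were higher in replicate 1 at GV and 637 (6.96%) at MII, and 338 were in both, which is 69.1% of the GV genes and 53.1% of the MII genes. In the other direction 437 genes (4.77%) were lower in replicate 1 at GV and 643 (7.02%) at MII, and 278 were in both, 63.6% and 43.2%. Over 24016 probe sets, the difference at GV correlated with that at MII at 0.498 (Pearson) and 0.439 (Spearman), and 65.9% of probe sets had the same sign. Over the 14409 probe sets with a mean above the 40th percentile, these were 0.609, 0.575 and 70.5%. Probe sets of 1 array share its depth and labelling, and are not independent points. Within replicate 1, 219 of the 295 genes counted as higher in the low arrays (74.2%) moved by less than 1 log2 unit from GV to MII, with a median change of 0.40. Both arrays had to read at least 10 for a gene to be counted, which bounds that change. The same genes moved by less than 1 in 35.6% and 35.3% of cases in replicates 2 and 3, where most of them were below 10. Over all genes the shares were 40.9%, 34.1% and 41.1% in replicates 1, 2 and 3. The 238 genes counted as higher in the high arrays gave the mirror image, with 52.1% in replicate 1 and 70.6% and 76.5% in replicates 2 and 3, so the share was high where the level rule had been applied.

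**Figure D5:**
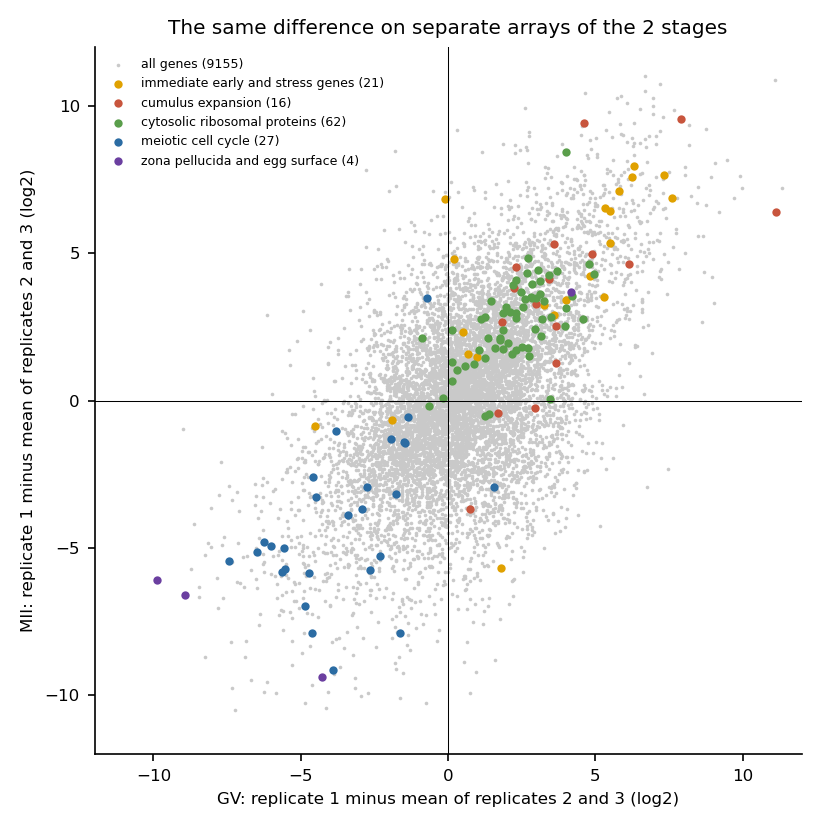
Difference between replicate 1 and the mean of replicates 2 and 3 at GV (horizontal axis) and at MII (vertical axis), in log2 units, for 9155 prepubertal genes (grey), with immediate early, cumulus expansion, ribosomal, meiotic and zona genes in colour. Most meiotic and zona genes lie at the lower left and most immediate early, cumulus and ribosomal genes at the upper right, with CD9 as the zona list's point at the upper right.

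The adult arrays did not take part in the division, and they show where the counted genes stood in other pools. Of the 238 genes counted as higher in the high arrays, 176 (73.9%) read at least 10 in all 5 adult arrays other than GV replicate 1, against 976 of all 9155 genes (10.7%), and none was under 10 in all 5. The level rule alone gives most of that share: of the 1255 genes at 10 or more in all 4 high arrays, 842 (67.1%) read at least 10 in all 5. Of the 295 genes counted as higher in the low arrays, 16 (5.42%) read at least 10 in all 5, and 234 (79.3%) were under 10 in all 5, against 5969 of all genes (65.2%). Of the 1597 genes at 10 or more in both low arrays, whatever their level in the high ones, 592 (37.1%) read at least 10 in all 5 and 365 (22.9%) were under 10 in all 5. The counted genes also had to be lower in the 4 high arrays. The 16 were the ribosomal genes RPL23, RPL30, RPL36A, RPL37A, RPL5, RPS12 and RPS26, with ACTG1, CSNK1A1, DDX5, IBSP, ITGB5, MRFAP1L1, RHOT2, SERPINE2 and VCAN. VCAN and SERPINE2 are cumulus and granulosa genes of the lists above. In single adult arrays, the genes of the low set read at least 10 in 25 to 42 of 295 cases in those 5 and in 66 in GV adult replicate 1, where 18.4% of all genes did. Of the 238 genes of the high set, 194 to 234 read at least 10 in the 5, where 17.7% to 23.6% of all genes did, and 65 in GV adult replicate 1. For PTX3, the 5 adult arrays ran from 1.92 to 6.28 and GV adult replicate 1 read 7.61, while TNFAIP6 reached 10.05 in GV adult replicate 1 and at most 7.41 in the others. GV adult replicate 1 was thus low for BMP15 like the 2 prepubertal arrays, without their levels of PTX3 and INHA (7.99).

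The labelled comparison that cuts across the division is maturation, MII against GV in prepubertal pools, since each stage holds 1 low and 2 high arrays. It was tested with limma over all 12 arrays on 14409 probe sets. None passed an adjusted p of 0.05 (Benjamini-Hochberg; 0% called, lowest adjusted p 0.999), and 492 (3.41%) had an unadjusted p under 0.05. Of the genes counted as higher in the low arrays, 271 of 295 were tested and 0 had an unadjusted p under 0.05, and of those counted as higher in the high arrays 0 of 238, against 170 of all 6842 genes tested (2.48%). These genes differ widely between replicates by the way they were chosen, which widens the error of that fit for them. With this spread a count of 0 does not show that levels stayed the same. With the replicate number as a block over the 6 prepubertal arrays, 0 probe sets passed (lowest adjusted p 0.156) and 1455 (10.1%) had an unadjusted p under 0.05. With that block, 17 of the 271 (6.27%) and 17 of the 238 (7.14%) had an unadjusted p under 0.05, against 656 of 6842 genes (9.59%). For PTX3, the change from GV to MII was -0.12 in replicate 1, 4.91 in replicate 2 and 4.28 in replicate 3, the last 2 between values under 10. For GDF9 it was -1.21, -0.43 and -2.27.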

How the data were processed

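The values are log2 signals as the authors deposited them; the submitters' processing notes name MAS5, with a version not given in the sources used here. Without its lowest and highest 2%, each array had a linear mean of 491.2 to 498.3 over the probe sets used, so arrays were not scaled again. Of 24128 probe sets, 112 controls were left out. Of the rest, 13292 carry 1 symbol in the array annotation, 86 several and 10638 none, and 13263 symbols (99.8%) matched a table of cattle genes through Entrez identifiers. A gene was read on its probe set with the highest mean over 12 arrays. No depth exists for arrays, and their number limits the precision.

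The members and the 19 gene lists were chosen with earlier results of these data known. Counting required a gap of 2 log2 units and a level of 10. Named were the 30 genes with the widest gap in each direction and members of the lists; clone and accession names were passed over. The rule also allowed the 6 probe sets with the smallest p for maturation in each direction, none of which is named since none passed the adjusted threshold. Genes outside the rule are marked as chosen after their values were seen.

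Maturation was tested with limma 3.58.1 in R 4.3.3, on 4 group means with an intensity trend, over probe sets with a mean above the 40th percentile, with Benjamini-Hochberg adjustment. The p-values measure the spread between these pools. Prepubertal GV and MII arrays of the same replicate number had correlated deviations from their group means (0.609, 0.149 and 0.306), all over the bound of 0.1. Differently numbered replicates 2 and 3 correlated alike, at 0.145 and 0.307, so the values do not single out pairs by number among them. Replicate 1 stood apart at both stages and is part of the group means, so the bound could be passed without pairing. No label ties the pools. The main fit did not pair them, and the replicate number was a block in an alternative only. Alternatives were quantile normalization, median centring (with the mean of the array medians added back for the level), a pseudocount of 32, gaps of 1 and 3, levels of 8 and 12, a filter on the mean (none, or the 60th percentile, for maturation), averaging the probe sets of a gene, other fits, and leaving out each array. Leaving out both prepubertal replicate 1 arrays for maturation was added after seeing the data. Tables and figures were made with Python 3.11.15.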

Additional observations from a re-analysis of the deposited data

How the results depend on the processing

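Of the 60 named genes none changed direction under the alternatives run. They were chosen for the widest gaps in these arrays, so their kept direction is no support for them. The size moved by more than the spread between arrays for 31 after median centring, 27 with a pseudocount of 32 and 16 after quantile normalization. It did so for 11 on averaging probe sets, and for 20 each without GV or MII replicate 1. The count of probe sets higher in the low arrays (575) was 245 after median centring, 872 and 348 with gaps of 1 and 3, 1034 and 206 with levels of 8 and 12, and 614 to 990 leaving out each array. The count higher in the high arrays (377) was 674 and 207 with those gaps, 160 with a level of 12, and 416 to 579 leaving out each array. Quantile normalization gave 600 and 415. Counts rise when an array is left out because fewer arrays must meet the rule. After median centring, list medians were -5.23 for oocyte growth factors, -5.24 for maternal effect genes, -4.77 for meiosis, -1.06 for mRNA storage, 2.38 for cumulus expansion, 1.61 for the cytoskeleton, 2.81 for immediate early genes, 1.40 for glycolysis, -1.07 for antioxidants, 1.66 for ribosomal proteins, -0.05 for surface epithelium and -0.51 for all genes. After quantile normalization, meiosis gave -4.35, surface epithelium -0.19 and all genes -0.16. With a pseudocount of 32, zona genes gave -6.22 and cumulus expansion 1.79. Averaging probe sets gave 0.34 for mRNA storage. Leaving out each array gave -4.48 to -3.75 for meiosis, -0.60 to 0.02 for mRNA storage, 3.63 to 4.69 for immediate early genes, -0.59 to 0.04 for antioxidants, 0.72 to 2.16 for blood cells, 0.02 to 0.83 for all genes and -0.22 to 1.63 for surface epithelium. The cause of these shifts was not tested.

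For maturation, 0 probe sets passed in each fit, with the replicate block (1455 at unadjusted p under 0.05) and without both low arrays (551) included; 492 passed an unadjusted p of 0.05 with a 2-fold change. The block changed no call. Signals under 10 were noisy and limit what the low values show.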

Other observations

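The genes and gene families in this section were chosen after their values were seen, and their values are descriptions. XIST, the noncoding RNA that coats the inactive X chromosome of female somatic cells, was among the 295 genes counted as higher in the low-BMP15 arrays. It read 12.17 at GV and 14.00 at MII in replicate 1, and 7.80, 5.75, 6.32 and 6.26 in GV replicate 2, GV replicate 3, MII replicate 2 and MII replicate 3. In the adult arrays it read 10.40 in GV replicate 1 and 3.87 to 6.40 in the other 5. The 3 arrays with low BMP15 were thus the 3 with XIST above 10. GV adult replicate 1 had the highest array median (8.30), a best correlation with any array of 0.27, and VIM at 4.35. Whether its XIST signal has the same source as that of the prepubertal arrays was not tested.

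Other genes met the counting rule outside the lists. On the side of the low arrays, HIF1A, the oxygen-regulated transcription factor, read 14.90 and 14.58 against 8.08, 7.08, 9.94 and 9.31. VEGFA, the angiogenic factor of the growing follicle, read 11.16 and 12.98 against 7.60, 5.52, 7.29 and 7.23. NTS, the peptide neurotensin, read 10.19 and 10.96 against 5.09, 2.24, 5.87 and 5.91, and SMAD4, the shared mediator of BMP and activin signals, 11.90 and 12.07 against 8.94, 6.97, 8.59 and 6.53. All 4 separated the sets. Of 19 families of gene symbols that were counted, 5 are given in detail here. Some others, such as zinc finger genes (1 of 87) and complex I subunits (0 of 42), lay near or below the shares over all genes. Further families lay above them, such as tropomyosins (3 of 4) and annexins (3 of 10) on the side of the low arrays. CDC and CDCA genes (5 of 28) did so on the side of the high arrays. On that side, where the share over all genes is 2.60%, 4 of 20 measured nucleoporin genes were counted (NUP107, NUP160, NUP37 and NUP85), with a median difference of -2.48 over the 20. So were 2 of 6 MCM helicase genes (MCM3 and MCM4) and 2 of 6 genes of the origin recognition complex (ORC5 and ORC6). Members of these 3 families counted on the side of the low arrays numbered 0. Of 11 FK506-binding proteins, 3 (against 3.22% of all genes) were counted as higher in the low arrays (FKBP14, FKBP3 and FKBP7), and of 23 integrin subunits 4 (ITGA2, ITGAV, ITGB3 and ITGB5).

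A further 4 single genes counted as higher in the high arrays are better known from other cell types. IRF8, a factor of myeloid cells, read 7.25 and 9.18 in the low arrays against 13.35, 14.21, 14.30 and 14.04, and 13.82 to 15.36 in the 5 adult arrays other than GV replicate 1. GFI1, a repressor of blood progenitors, read 4.9 and 6.5 against 10.93, 11.41, 11.65 and 12.42. TEK, the angiopoietin receptor of endothelium, read 6.75 and 4.11 against 10.58, 12.17, 11.11 and 11.64, and EPCAM, of epithelia, 7.38 and 5.40 against 11.22, 11.23, 11.19 and 10.63. TEK and EPCAM are the counted genes of the endothelial and surface epithelium lists, on which 4 of 11 and 3 of 8 genes had a negative difference, as did 7 of 20 blood and immune genes.

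Probe sets of 2 genes met the counting rule in opposite directions. For GNAS, the stimulatory G protein subunit, 1 probe set read 7.44 and 11.29 in the low arrays against 14.32, 14.92, 14.47 and 14.30, and another 13.30 and 14.44 against 4.84, 5.84, 9.07 and 5.35. For PRDX6 the probe set used above was higher in the high arrays, and another read 11.13 and 11.34 against 6.07, 8.82, 5.41 and 8.79. Which transcripts these probe sets match was not examined.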
